A study of Mus musculus with 10 samples.

Results

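The genes described here are the nuclear-encoded subunits of complexes III, IV and V of the mitochondrial oxidative phosphorylation system, with cytochrome c, measured in sorted epithelial cells of the mouse stomach corpus. They were taken by symbol: every gene whose name begins with Uqcr, with Cox4, Cox5, Cox6, Cox7 or Cox8, or with Atp5, and also Cyc1 and Cycs. The pattern matched 54 of 55276 listed genes, and 8 names marked as pseudogenes were left out, so that 46 remained. Of the 46, 9 belong to complex III, 1 is cytochrome c, 19 belong to complex IV and 17 to complex V. The rule reads names and no values, and it was chosen with earlier results of these data known.

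Bulk RNA was sequenced from EpCAM-positive cells that excluded the dye DAPI, a mark of living cells, taken from C57BL/6 mice aged 6 to 8 weeks. In R122C mice the transcription factor RUNX3 had cysteine in place of an arginine, and WT mice were wild type for Runx3. All mice, WT included, carried the Iqgap3-2A-tdTomato allele, a reporter that makes the red protein tdTomato from the locus of Iqgap3, a scaffold protein. The sort gave a fraction high in Iqgap3 (IQ3pos) and a fraction low in or lacking it (IQ3neg). There were 4 groups, R122C IQ3pos with 2 libraries, WT IQ3pos with 3, R122C IQ3neg with 2 and WT IQ3neg with 3. Each library was a pool of 3 mice, except the WT replicate 2 libraries of both fractions, which were pools of 4. The labels leave unsaid whether IQ3pos and IQ3neg libraries of one number share mice. The p-values below set group differences against the spread between libraries of pooled mice, and the main fit treats all libraries as independent.

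Oxidative phosphorylation passes electrons from nutrients to oxygen along carriers in the inner mitochondrial membrane, pumps protons across that membrane and uses the resulting gradient to make ATP. Complex III passes electrons from ubiquinol to cytochrome c, complex IV passes them from cytochrome c to oxygen, and complex V is the rotary ATP synthase. Each of these complexes mixes subunits made from nuclear genes with a few made from the mitochondrial genome, and in the gastric corpus the acid-secreting parietal cells are known for their dense content of mitochondria.

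Promoter sequences are shown for 5 members on which the results turn. Cox5a, Cycs and Atp5g3 had the lowest adjusted p-values between the sorted fractions in WT, and Atp5md and Atp5l had the lowest unadjusted p-values between genotypes, both lower in R122C IQ3pos cells than in WT. Each stretch runs 5′ to 3′ on the strand of the gene, from 250 bases before to 50 bases after the RefSeq start (build GRCm38.p6). Capitals mark matches to the motifs searched.
Cox5a (chr9:57520982-57521281, plus strand): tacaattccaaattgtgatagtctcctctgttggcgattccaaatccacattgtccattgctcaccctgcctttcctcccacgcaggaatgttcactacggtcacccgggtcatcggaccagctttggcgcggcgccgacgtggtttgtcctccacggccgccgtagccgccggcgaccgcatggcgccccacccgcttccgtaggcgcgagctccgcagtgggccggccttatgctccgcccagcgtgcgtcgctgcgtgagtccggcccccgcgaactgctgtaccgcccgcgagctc
Cycs (chr6:50566520-50566819, minus strand): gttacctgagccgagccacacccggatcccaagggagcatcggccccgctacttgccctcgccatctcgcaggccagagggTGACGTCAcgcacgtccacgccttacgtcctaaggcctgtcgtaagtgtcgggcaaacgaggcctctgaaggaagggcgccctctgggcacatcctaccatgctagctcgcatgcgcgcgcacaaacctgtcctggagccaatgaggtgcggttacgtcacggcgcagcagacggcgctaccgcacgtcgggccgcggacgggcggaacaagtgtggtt
Atp5g3 (chr2:73911277-73911576, minus strand): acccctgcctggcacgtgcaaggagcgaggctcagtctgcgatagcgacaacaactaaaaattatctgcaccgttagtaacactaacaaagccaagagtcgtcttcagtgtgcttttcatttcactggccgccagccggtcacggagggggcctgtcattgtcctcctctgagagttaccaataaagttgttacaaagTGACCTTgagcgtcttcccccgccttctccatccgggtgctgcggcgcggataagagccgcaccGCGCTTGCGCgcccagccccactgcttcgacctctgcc
Atp5md (chr19:47090598-47090897, minus strand): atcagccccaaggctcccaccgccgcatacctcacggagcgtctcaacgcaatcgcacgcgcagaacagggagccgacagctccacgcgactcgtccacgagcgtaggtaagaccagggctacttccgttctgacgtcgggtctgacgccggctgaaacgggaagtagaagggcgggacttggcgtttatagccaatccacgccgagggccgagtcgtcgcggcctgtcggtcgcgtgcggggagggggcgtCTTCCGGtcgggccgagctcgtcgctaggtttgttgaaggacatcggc
Atp5l (chr9:44920693-44920992, minus strand): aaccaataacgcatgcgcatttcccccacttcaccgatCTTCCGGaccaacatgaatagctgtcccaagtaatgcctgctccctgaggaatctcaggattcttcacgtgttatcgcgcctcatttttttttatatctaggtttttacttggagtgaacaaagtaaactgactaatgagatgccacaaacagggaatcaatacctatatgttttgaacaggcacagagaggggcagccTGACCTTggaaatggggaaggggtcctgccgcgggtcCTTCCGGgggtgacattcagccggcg

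Promoters of this table were found for 34 of the 46 members, and 5 short motifs that are linked to genes of the respiratory chain were searched on both strands as exact letters. The NRF1 motif (GCGCA, any base, GCGC) was present for 23.5% of these members (8 of 34), beside 5.19% of all 27025 genes with a promoter. The ETS motif CCGGAAG was present for 32.4% of them (11 of 34), beside 9.93% of all those genes. The YY1 motif AAGATGG and the ERR motif AAGGTCA were each present for 11.8% (4 of 34), beside 7.28% and 5.38% of all those genes. The CRE motif TGACGTCA, added after the Cycs sequence had been read, was present in 2 members, Cycs and Uqcrfs1, beside 2.03% of all those genes. The 27025 genes were taken whether or not they were detected here, while most members were abundant, so these shares are not like for like. Some motifs share short stretches of letters, AAG in the ETS, YY1 and ERR motifs and GTCA in the ERR and CRE motifs. Among the sequences shown, Cox5a held none of these letters, Cycs held the CRE motif, and Atp5g3 held the NRF1 and ERR motifs. Atp5md held the ETS motif once, and Atp5l held it more than once together with the ERR motif. A match describes letters and says nothing of binding.

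The libraries differed before any comparison. The deposited values are log2 CPM, read counts divided by 1 number per library, in which every gene below 1 CPM is listed at 0. That divisor ran from 47432129 to 264816271 reads, and the listed reads summed to more than it in every library. The epithelial markers Epcam, Krt8, Krt18 and Cdh1 were above that floor in all 10 libraries, and they summed to 1187 CPM in WT IQ3neg replicate 1 and to 3057 to 5184 CPM in the other 9. The endothelial markers Cdh5 and Kdr were listed at 0 in all 10 and Pecam1 in 9. Iqgap3 itself was listed at 0 in 3 of the 5 IQ3pos libraries (R122C replicate 2 and WT replicates 1 and 3), and Runx3 was listed at 0 in every library but WT IQ3neg replicates 2 and 3, so neither gene checks the labels here. WT IQ3neg replicate 1 stood apart: Clps, the gene of pancreatic colipase, took 32.1% of what was listed there, while the other IQ3neg libraries gave it 9.23% to 12.9%, and its median tested gene was the lowest of all at 2.28 log2 CPM. It also held the lowest value of 29 of the 39 subunit genes that were above the floor in every library. Differences that rest on WT IQ3neg replicate 1 are therefore given with and without it. WT IQ3pos replicate 1, the library with the smallest divisor, held the highest value of 23 of these 39 genes. Values without WT IQ3neg replicate 1 still include WT IQ3pos replicate 1, unless both are said to be left out.

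The respiratory subunits were abundant in all 4 groups. The 39 members above the floor in every library had a median level of 8.37 and 8.45 log2 CPM in R122C IQ3pos, 8.91, 8.51 and 8.16 in WT IQ3pos, 7.45 and 8.23 in R122C IQ3neg, and 6.84, 7.77 and 7.83 in WT IQ3neg. The median of all 17155 tested genes lay between 2.28 and 3.35 log2 CPM in the same libraries. Many of those genes sit at the floor in some libraries and the 39 in none, so these medians are not like for like. In the median of the 39 members R122C IQ3neg replicate 2 was above WT IQ3pos replicate 3. Every other IQ3neg library was below all IQ3pos libraries, and the R122C IQ3pos libraries lay inside the WT IQ3pos range. The 46 members together took 1.52% and 1.65% of the listed reads in R122C IQ3pos, 1.90%, 1.66% and 1.37% in WT IQ3pos, 0.802% and 1.23% in R122C IQ3neg, and 0.510%, 0.936% and 1.02% in WT IQ3neg. The counting interval of the lowest of these shares was 0.508% to 0.511% (95% Wilson interval), and such intervals cover counting error only, since reads made by PCR are not independent molecules. With 23 abundant genes left out of the total, no member among them, the shares in IQ3pos were 1.75% and 1.96% in R122C. They were 2.495%, 2.00% and 1.62% in WT IQ3pos, 1.26% and 1.79% in R122C IQ3neg, and 1.29%, 1.31% and 1.45% in WT IQ3neg. R122C IQ3neg replicate 2 then stood above R122C IQ3pos replicate 1 and WT IQ3pos replicate 3. In bulk RNA, fewer cells of a type and less RNA per cell cannot be told apart.

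**Figure D1:**
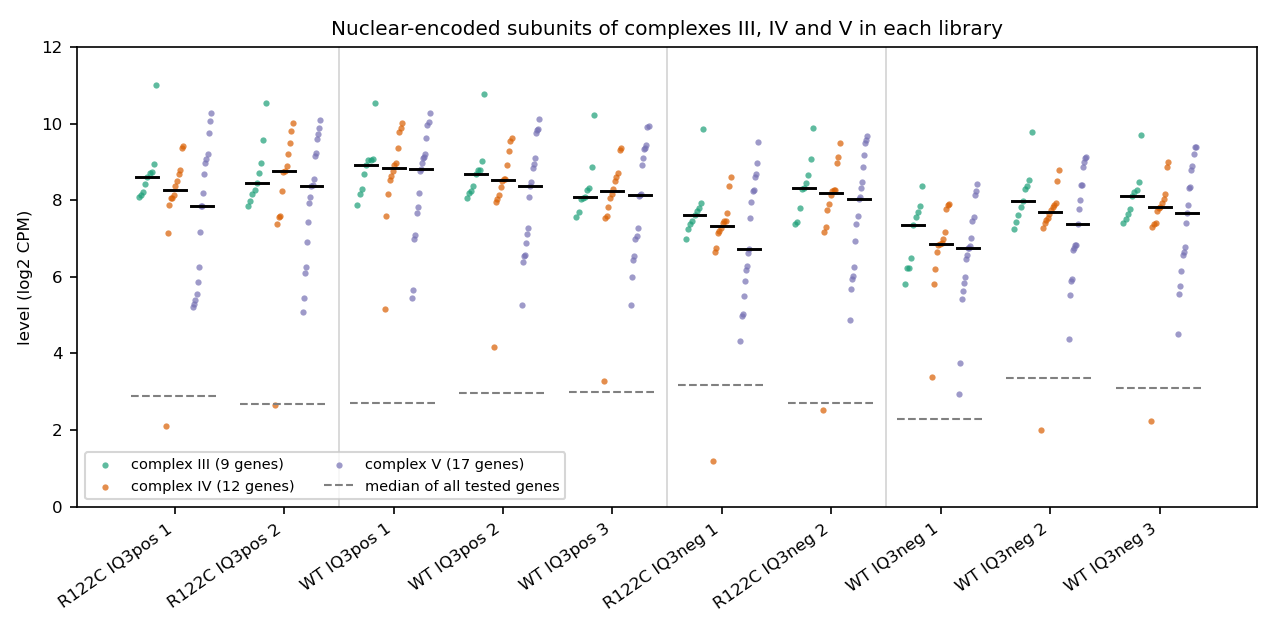
Levels in log2 CPM (vertical axis) of the 38 complex III, IV and V members above the floor in all 10 libraries, 1 column of points per complex and library, with black bars at the median of each complex and dashed grey lines at the median of all tested genes. Of the members, Cox7a1, the lowest complex IV point, lies below the grey line in 6 of the 10 libraries and no other member does in any, and the bars of WT IQ3neg replicate 1 are at 7.35, 6.87 and 6.76 log2 CPM.

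Levels of different genes were compared per kilobase of coding length, over the 37 always-detected members with an annotated one. On this scale Cox7c, a small subunit that spans the membrane, and Cox6b1, a small subunit on its outer face, led complex IV. Cox7c averaged 3456 CPM per kilobase in R122C IQ3pos, 3459 in WT IQ3pos, 1795 in R122C IQ3neg and 1288 in WT IQ3neg. Cox6b1 averaged 3327 in R122C IQ3pos, 3004 in WT IQ3pos, 2032 in R122C IQ3neg and 1477 in WT IQ3neg. In complex III the small subunits Uqcr10 and Uqcr11 led, with 2328 and 2136 CPM per kilobase in R122C IQ3pos, against 2213 and 2355 in WT IQ3pos. The core protein Uqcrc1 averaged 1231 CPM per kilobase in R122C IQ3pos and 1023 in WT IQ3pos, and its partner Uqcrc2 averaged 233 in R122C IQ3pos and 196 in WT IQ3pos. Order and spread depended on the length used. Per kilobase of whole exonic length Cox6b1 led complex IV with 1212 CPM in R122C IQ3pos and 1095 in WT IQ3pos. Next came Cox6a1 in R122C IQ3pos (597, with Cox7c at 578) and Cox7c in WT IQ3pos (578, with Cox6a1 at 558). Uqcr10 and Uqcrc2 then averaged 765 and 124 in R122C IQ3pos.

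Between the sorted fractions, every always-detected subunit gene was higher in IQ3pos than in IQ3neg cells of WT mice by its group mean. None passed the test of the main fit, which treats all libraries as independent. Over the 42 tested members the median difference was 1.03 on the log2 scale, or 2.04-fold, beside 0.16 over all 17155 tested genes. Many of those genes sit at the floor in some libraries, and over the 7404 genes above it in every library the median was 0.51, beside 1.05 for the 39 members among them. The 39 always-detected members ran from 0.50 (Uqcr11) to 1.67 (Cox7a1). After rescaling without the most abundant genes the median over 42 members was 0.54, beside -0.16 over all tested genes. By limma with Benjamini-Hochberg adjustment over all tested genes, 0 of 42 members were called at an adjusted p of 0.05, where 2.03% of all tested genes were called (0.606% higher and 1.42% lower in IQ3pos). At an unadjusted p under 0.05 the count was 29 of 42 members and 3190 of all genes (18.6%). Many of the latter genes sit at the floor in some libraries, and no such count was taken over the 7404. With each library centred on the median of its tested genes, 7 of 42 members were called, where 898 of 17155 genes were (510 higher). When genes had to be above the floor in all 10 libraries, 3 of 39 members were called (Cox5a, Cycs and Atp5g3). In that setting 405 of the 7404 genes were called (321 higher). A fit with same-numbered libraries as a block also called Cox5a, Cycs and Atp5g3, and is given with its count of all genes in the last section. After rescaling without the most abundant genes 0 members were called, where 711 of 17155 genes were (172 higher). The values of all 3 IQ3pos libraries lay above all 3 IQ3neg libraries for 33 of 42 members and below them for 0, beside 13.2% of all tested genes above and 8.07% below. Among the genes above the floor in every library, 24.6% lay above and 3.55% below. The titles also carry a code of unknown meaning, which is the same for the IQ3pos and IQ3neg libraries of one number. Within a number, the median over 39 members was 1.92 in WT replicate 1, 0.73 in replicate 2 and 0.45 in replicate 3, with 39, 39 and 36 members above 0. Without WT IQ3neg replicate 1 the median over 42 members was 0.70, and without both WT replicate 1 libraries it was 0.60, with 41 of 42 members above 0 in both cases. Over those same fits the median of all genes was -0.04 without WT IQ3neg replicate 1 and 0 without both. With WT IQ3pos replicate 1 alone left out the median over 42 members was 0.89, beside 0.23 over all genes. The 39 always-detected members had a median of 0.73 without WT IQ3neg replicate 1, beside 0.13 over the 7404 genes.

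In R122C mice the same comparison gave a median of 0.62 over the 42 tested members, or 1.54-fold, beside 0.02 over all tested genes, and 0.62 over the 39 always-detected members beside 0.37 over the 7404 genes. Of the 39 always-detected members, 37 were above 0, and the other pair, Atp5e and Atp5md, had differences of -0.18 and -0.00. With limma 0 of 42 members were called, where 0.321% of all tested genes were called (0.0291% higher and 0.291% lower). The unadjusted p was under 0.05 for 1 member, Cox5a, and for 1389 of all genes (8.10%). Both IQ3pos libraries lay above both IQ3neg libraries for 20 of 42 members and below them for 0, beside 21.7% of all genes above and 14.6% below, and 37.5% and 10.5% of the 7404 genes. R122C IQ3neg replicate 2 was the IQ3neg library with the highest median, and the median within replicate 1 was 0.96 and within replicate 2 it was 0.35. Without R122C IQ3neg replicate 1 the median over 42 members was 0.24, and without replicate 2 it was 0.95. The difference between R122C and WT in this fraction effect (the interaction) had a median of -0.41 over the 42 members and -0.13 over all genes. By limma 0 members and 0% of all genes were called, and 0 members and 444 genes in all (2.59%) had an unadjusted p under 0.05. Without both WT replicate 1 libraries the interaction's median was 0.01.

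**Figure D2:**
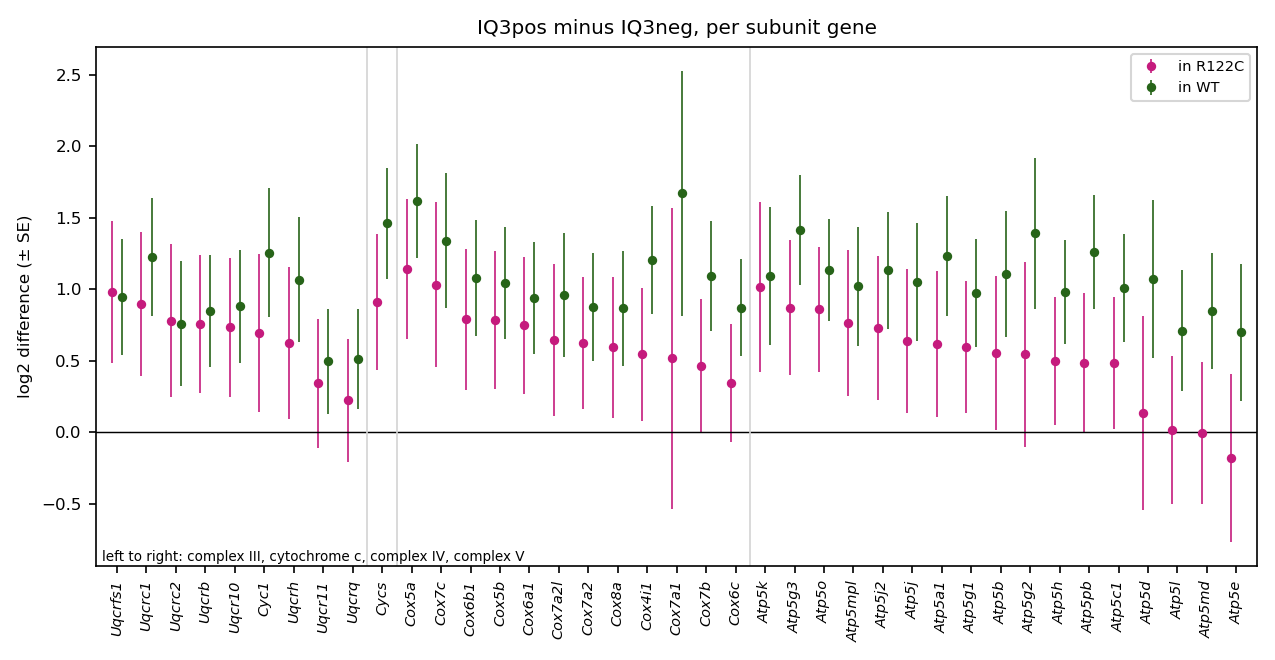
Log2 difference of IQ3pos minus IQ3neg (vertical axis, bars are standard errors of limma) for the 39 always-detected members in R122C (pink) and in WT (green), grouped by complex from left to right and ordered by the R122C value. All 39 green points lie above 0, from 0.50 to 1.67 (0.24 to 2.09 without WT IQ3neg replicate 1), while the pink points run from -0.18 (Atp5e) to 1.14 (Cox5a).

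In complex III, whose 9 members had a median fraction difference of 0.73 in R122C and 0.88 in WT (0.56 without WT IQ3neg replicate 1), the catalytic and core genes were followed by sample. Uqcrc1, the larger core protein, had 11 and 10.55 log2 CPM in R122C IQ3pos and 10.53, 10.77 and 10.22 in WT IQ3pos, against 9.86 and 9.89 in R122C IQ3neg and 8.37, 9.78 and 9.69 in WT IQ3neg. Its IQ3pos and IQ3neg libraries did not overlap in either genotype. The difference was 0.90 ± 0.50 in R122C (SE; adjusted p = 0.714 by limma) and 1.23 ± 0.41 in WT (adjusted p = 0.15), and the WT value was 0.77 without WT IQ3neg replicate 1. Cyc1, the haem-carrying cytochrome c1, had 8.70 and 7.85 log2 CPM in R122C IQ3pos and 7.87, 8.38 and 8.08 in WT IQ3pos, against 7.73 and 7.43 in R122C IQ3neg and 5.81, 7.26 and 7.50 in WT IQ3neg. Again the fractions did not overlap, and the single low value of 5.81 belongs to WT IQ3neg replicate 1. The Rieske iron-sulfur protein Uqcrfs1, which takes the first electron from ubiquinol, differed between fractions by 0.98 ± 0.50 in R122C and 0.95 ± 0.41 in WT (adjusted p = 0.677 and 0.239 by limma). The core protein Uqcrc2 and the ubiquinone-binding subunit Uqcrb differed by 0.78 and 0.76 in R122C and by 0.76 and 0.85 in WT. Without WT IQ3neg replicate 1 the WT values were 0.55 for Uqcrfs1, 0.24 for Uqcrc2 and 0.56 for Uqcrb. The smallest differences of this complex in WT were those of its short subunits Uqcr11 (0.50) and Uqcrq (0.51), for both of which the WT fractions overlapped, and they were 0.29 and 0.33 without that library.

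Cytochrome c, encoded by Cycs, carries electrons from complex III to complex IV and, once released from mitochondria, takes part in apoptosis. Its level was 9.06 and 8.85 log2 CPM in R122C IQ3pos and 9.53, 9.58 and 8.76 in WT IQ3pos, against 7.69 and 8.40 in R122C IQ3neg and 7.19, 8.11 and 8.19 in WT IQ3neg. All 5 IQ3pos libraries stood above all 5 IQ3neg libraries. The fraction difference was 0.91 ± 0.48 in R122C (adjusted p = 0.686 by limma) and 1.46 ± 0.39 in WT (adjusted p = 0.0769), and the WT value was 1.14 without WT IQ3neg replicate 1 and 1.02 without both WT replicate 1 libraries.

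Complex IV held the member with the lowest adjusted p of the WT and of the R122C fraction comparison, Cox5a, a subunit on the matrix side that is known to bind a thyroid hormone metabolite. Cox5a had 8.80 and 9.21 log2 CPM in R122C IQ3pos and 9.36, 8.91 and 8.72 in WT IQ3pos, against 7.47 and 8.26 in R122C IQ3neg and 6.66, 7.54 and 7.93 in WT IQ3neg. The fractions were separated in both genotypes, and the lowest IQ3pos value, 8.72, was above the highest IQ3neg value, 8.26. The difference was 1.14 ± 0.49 in R122C (adjusted p = 0.562 by limma) and 1.62 ± 0.40 in WT (adjusted p = 0.0625), where it was 1.26 without WT IQ3neg replicate 1. It was 2.7, 1.37 and 0.78 within WT replicates 1, 2 and 3, and 1.33 and 0.95 within R122C replicates 1 and 2, so all 5 numbered pairs ran the same way. This direction is not particular to Cox5a: 39, 39 and 36 of the 39 always-detected members were above 0 within the WT pairs, and 36 and 35 within the R122C pairs. The adjusted p of Cox5a in WT crossed the threshold when WT IQ3neg replicate 3 was left out (0.0458) and was 0.155 without both WT replicate 1 libraries. Over all 19 alternatives it ran from 0.0206 to 0.163.

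The other subunits of complex IV that are made in most tissues differed in the same direction by their means. Cox4i1, the common isoform of subunit 4, which binds ATP as a regulator, had 9.36 and 9.49 log2 CPM in R122C IQ3pos and 10.01, 9.54 and 9.32 in WT IQ3pos, against 8.62 and 9.14 in R122C IQ3neg and 7.76, 8.51 and 8.99 in WT IQ3neg. The fractions did not overlap, with differences of 0.54 ± 0.46 in R122C and 1.20 ± 0.38 in WT (adjusted p = 0.820 and 0.129 by limma). Cox5b, the zinc-binding subunit, differed by 0.79 in R122C and 1.04 in WT. The ubiquitous isoforms Cox6a1, Cox6b1, Cox7a2 and Cox8a differed by 0.59 to 0.79 in R122C and by 0.87 to 1.08 in WT, and Cox7c by 1.03 in R122C and 1.34 in WT. Cox7a2l, which joins complex III to complex IV in supercomplexes and is known to exist in C57BL/6 mice in a shortened form, differed by 0.64 in R122C and 0.96 in WT. Without WT IQ3neg replicate 1 the WT values were 0.88 for Cox4i1, 0.73 for Cox5b, 0.46 to 0.76 for the 4 ubiquitous isoforms, 1.33 for Cox7c and 0.46 for Cox7a2l.

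The tissue-restricted isoforms of complex IV were near or below the floor. Cox6a2 and Cox8b, isoforms of heart and skeletal muscle, and Cox8c, a testis isoform, were listed at 0 in all 10 libraries. Cox6b2, also of the testis, was above 0 in 1 library, WT IQ3neg replicate 3, at 0.08 log2 CPM. Cox7b2, another testis isoform, was listed above 0 in the R122C replicate 2 libraries alone, with an IQ3pos value of 1.29 log2 CPM and an IQ3neg value of 0.23. Cox4i2, the isoform of subunit 4 known from lung, was listed above 0 in WT IQ3pos replicates 1 and 3 alone, at 0.52 and 0.84 log2 CPM. Cox6c2, annotated as a processed pseudogene, was listed above 0 in WT IQ3pos replicates 1 and 2 alone, at 0.39 and 0.03. A listed 0 means under 1 CPM, which is 47.4 to 265 reads depending on the library, and not absence.

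Cox7a1, the heart and muscle isoform of subunit 7a, was the exception among these isoforms. It had 2.11 and 2.65 log2 CPM in R122C IQ3pos, 5.16, 4.18 and 3.28 in WT IQ3pos, 1.19 and 2.53 in R122C IQ3neg, and 3.38, 2.00 and 2.23 in WT IQ3neg. All 3 WT IQ3pos libraries lay above both R122C IQ3pos libraries, while the fractions overlapped in both genotypes. Its highest value was in WT IQ3pos replicate 1, and its genotype difference in IQ3pos ran from -2.29 to -1.35 over the 19 alternatives. Its differences carried the widest errors among the always-detected members: -1.83 ± 0.96 for R122C against WT in IQ3pos (adjusted p = 0.913 by limma) and 1.67 ± 0.86 between fractions in WT (adjusted p = 0.322), which was 2.09 without WT IQ3neg replicate 1. Per kilobase of coding length it averaged 22.1 CPM in R122C IQ3pos and 88.3 in WT IQ3pos, where its ubiquitous paralogue Cox7a2 averaged 1394 and 1453. The markers of heart and skeletal muscle Acta1, Actc1, Myh7 and Ckm summed to 0 to 5.8 CPM in the 10 libraries, the fibroblast and smooth muscle markers to 0 to 13.6 CPM, and the brown fat markers Ucp1 and Cidea to 0 to 12.1 CPM. Their part in the Cox7a1 level was not tested.

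**Figure D3:**
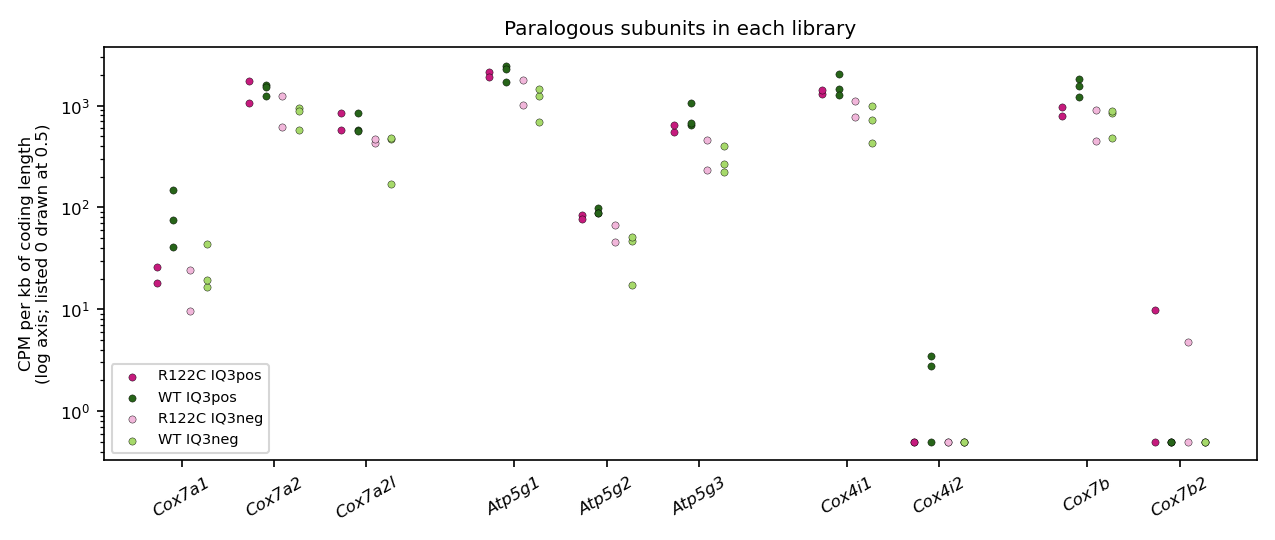
Level of paralogous subunits in CPM per kilobase of coding length (log axis, a listed 0 drawn at 0.5), 1 point per library, with R122C IQ3pos, WT IQ3pos, R122C IQ3neg and WT IQ3neg from left to right for each gene. Cox7a1, Cox4i2 and Cox7b2 lie far under their partners in every library, and the 3 genes of the c ring are spread with Atp5g1 highest and Atp5g2 lowest.

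Complex V has a catalytic head, a central and a peripheral stalk and a membrane ring of c subunits. Its 17 members, all above the floor in every library, had a median fraction difference of 0.55 in R122C and 1.07 in WT (0.78 without WT IQ3neg replicate 1). Atp5b, the catalytic beta subunit, had 10.06 and 9.74 log2 CPM in R122C IQ3pos and 9.63, 9.84 and 9.92 in WT IQ3pos, against 9.51 and 9.18 in R122C IQ3neg and 7.57, 9.11 and 9.39 in WT IQ3neg. The fractions did not overlap, and the IQ3neg libraries other than WT replicate 1 lay between 9.11 and 9.51. The difference was 0.55 ± 0.54 in R122C and 1.11 ± 0.44 in WT (adjusted p = 0.847 and 0.210 by limma). Atp5a1, the alpha subunit of the head, differed by 0.62 in R122C and 1.23 in WT, and Atp5c1, the gamma subunit of the central stalk, by 0.48 in R122C and 1.01 in WT. Atp5d, the delta subunit at the foot of that stalk, differed by 0.13 in R122C and by 1.07 in WT, where its IQ3neg value in replicate 1 was 3.74 log2 CPM, against 5.89 and 5.76 in replicates 2 and 3. The name Atp5o covers 2 overlapping loci of the annotation, so its reads cannot be assigned to the oligomycin-sensitivity subunit alone, and it differed by 0.86 in R122C and 1.14 in WT. Without WT IQ3neg replicate 1 the WT values were 0.55 for Atp5b, 0.70 for Atp5a1, 0.63 for Atp5c1, 0.38 for Atp5d and 0.86 for Atp5o.

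The c ring is encoded by 3 nuclear genes whose mature proteins are identical and whose import sequences differ. Atp5g3 had 7.85 and 8.10 log2 CPM in R122C IQ3pos and 8.80, 8.08 and 8.16 in WT IQ3pos, against 6.62 and 7.59 in R122C IQ3neg and 6.57, 6.82 and 7.42 in WT IQ3neg. All IQ3pos values exceeded all IQ3neg values, with differences of 0.87 ± 0.47 in R122C (adjusted p = 0.699 by limma) and 1.41 ± 0.39 in WT (adjusted p = 0.0836). Atp5g1 differed by 0.59 in R122C and 0.97 in WT, and Atp5g2 by 0.54 in R122C and 1.39 in WT, where replicate 1 of IQ3neg was at 2.93 log2 CPM against 4.37 and 4.5 in the other two. Without that library the WT values were 1.23 for Atp5g3, 0.66 for Atp5g1 and 0.89 for Atp5g2. Per kilobase of coding length Atp5g1 was the highest c-ring transcript, at 2023 CPM in R122C IQ3pos and 2142 in WT IQ3pos. Atp5g3 followed at 596 in R122C IQ3pos and 791 in WT IQ3pos, and Atp5g2 at 81.0 in R122C IQ3pos and 91.6 in WT IQ3pos. Per kilobase of whole exonic length the order was the same and Atp5g1 and Atp5g3 were closer, with 168 and 116 CPM in R122C IQ3pos, against 178 and 153 in WT IQ3pos. The sequences of such near-identical genes and of their processed copies may share reads, and the way such reads were counted is not stated. The 8 names marked as pseudogenes were listed at 2.10 log2 CPM or less in every library.

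Between genotypes no member was called in either fraction. In IQ3pos cells the median difference of R122C against WT was -0.05 over the 42 tested members and 0 over all tested genes, with 18 members above 0 and 24 below. Over the 7404 genes above the floor in every library it was 0.09, beside -0.04 for the 39 members. With limma 0 of 42 members and 0% of all tested genes were called. An unadjusted p under 0.05 was found for 3 members (Atp5md, Atp5l and Cox6c) and for 930 genes in all (5.42%). All 3 of these members were lower in R122C. The R122C libraries lay below all WT libraries for 8 of 42 members (Atp5pb, Cox7a1, Atp5l, Uqcrq, Cox6c, Atp5g2, Atp5md and Cox7b) and above them for 0, beside 7.2% of all genes below and 8.28% above, and 10.1% and 11.8% of the 7404 genes. By complex the medians were 0.16 for complex III, -0.00 for complex IV and -0.18 for complex V. In IQ3neg cells the median was 0.29 over the 42 members and 0.07 over all genes. It was 0.31 over the 39 always-detected members beside 0.23 over the 7404 genes. In that fraction 0 members and 0% of genes were called, and 0 members and 629 genes in all (3.67%) had an unadjusted p under 0.05. There R122C lay above all WT libraries for 3 members (Atp5a1, Atp5d and Uqcrc1) and below them for 1 (Atp5md), beside 6.83% and 6.77% of all genes, and 7.54% and 5.58% of the 7404 genes. The IQ3neg median was -0.00 without WT IQ3neg replicate 1 and -0.07 without R122C IQ3neg replicate 2. The IQ3pos median was 0.02 without WT IQ3pos replicate 1. Only R122C replicate 1 and WT replicate 2 share a title code, and between these, with 1 library each per fraction, the median over 39 members was -0.15 in IQ3pos and -0.38 in IQ3neg, with 10 and 6 members above 0. Genotype and the other codes cannot be told apart.

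Atp5md had the lowest adjusted p of the genotype comparisons. It encodes a small subunit, also called DAPIT, that sits where ATP synthase dimers meet. Its level was 5.41 and 6.10 log2 CPM in R122C IQ3pos, against 8.18, 7.12 and 7.07 in WT IQ3pos. In IQ3neg it was 5.49 and 6.03 in R122C, against 6.47, 6.71 and 6.64 in WT. The R122C libraries were below all WT libraries in both fractions. The difference was -1.70 ± 0.46 in IQ3pos (unadjusted p = 0.00286, adjusted p = 0.427 by limma) and -0.84 ± 0.46 in IQ3neg (adjusted p = 1.0). Over the 19 alternatives the IQ3pos difference ran from -2.05 to -1.33 and its adjusted p from 0.245 to 1.0, and within the shared title code it was -1.71 in IQ3pos and -1.22 in IQ3neg.

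Several other members lay at the low end in IQ3pos. Atp5l, subunit g of the dimer interface, had 5.28 and 5.46 log2 CPM in R122C IQ3pos, against 7.10, 6.57 and 6.01 in WT IQ3pos, a difference of -1.19 ± 0.47 (adjusted p = 0.842 by limma). Cox6c, a small subunit of complex IV, had 7.15 and 7.37 in R122C IQ3pos, against 8.53, 8.04 and 7.82 in WT IQ3pos, a difference of -0.87 ± 0.38 (adjusted p = 0.911). Both were without overlap in IQ3pos and overlapped in IQ3neg. Both also had their highest value in WT IQ3pos replicate 1. Over the 19 alternatives, leaving out that library among them, the IQ3pos difference ran from -1.46 to -0.92 for Atp5l. For Cox6c it ran from -1.09 to -0.67. Atp5e, the epsilon subunit of the central stalk, had 5.55 and 6.91 log2 CPM in R122C IQ3pos, against 7.66, 6.90 and 6.98 in WT IQ3pos, and so overlapped by a narrow margin (difference -0.95 ± 0.54, adjusted p = 0.930 by limma). Atp5e was also the one member that was lower in IQ3pos than IQ3neg in both numbered R122C pairs (-0.35 and -0.01) and higher in all 3 WT pairs (1.82, 0.07 and 0.21) while its interaction was -0.88 ± 0.76 (adjusted p = 1.0 by limma). Cox7b, an X-linked subunit of complex IV, and Uqcrq of complex III were lower in R122C IQ3pos without overlap by 0.78 and 0.50 (adjusted p = 0.925 and 0.963). At the other end, Uqcrfs1, Uqcrb, Uqcrc1 and Uqcrc2 of complex III had the 4 highest IQ3pos values among the always-detected members, 0.26 to 0.38, and each overlapped between genotypes.

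**Figure D4:**
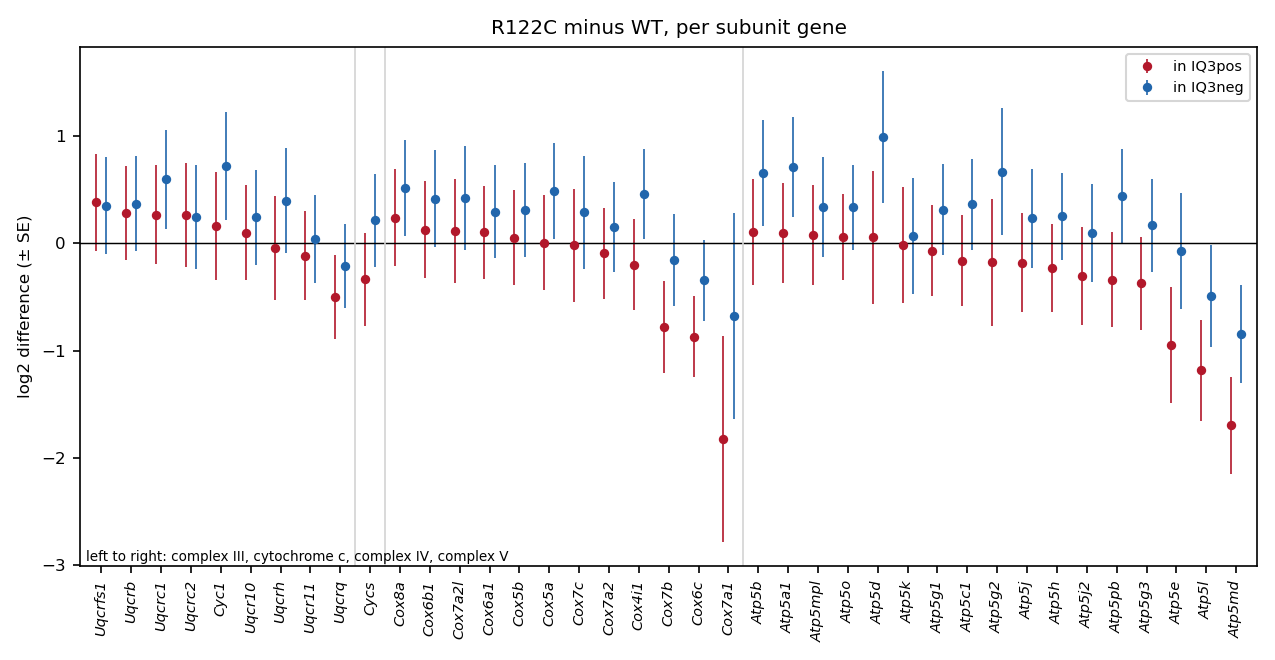
Log2 difference of R122C minus WT (vertical axis, bars are standard errors of limma) for the 39 always-detected members in IQ3pos (red) and IQ3neg (blue), grouped by complex and ordered by the IQ3pos value. In IQ3pos 17 of 39 points lie above 0 (median -0.04), and in IQ3neg 32 do (median 0.31, or -0.00 without WT IQ3neg replicate 1). The low end of complexes IV and V is held by Cox7a1 (-1.83 in IQ3pos), Atp5md (-1.70), Atp5l (-1.19) and Atp5e (-0.95).

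Coding length was set beside these differences. Over the 37 always-detected members with a coding length, Spearman's rho between length and the R122C against WT difference was 0.41 in IQ3pos and 0.66 in IQ3neg, beside 0.03 and -0.06 over 5110 other genes that were above the floor in every library. For the fraction difference it was 0.19 in R122C and 0.39 in WT, beside -0.04 and -0.10 over the other genes. Without WT IQ3neg replicate 1 the members' rho was 0.39 for the genotype difference in IQ3neg, which so rests in part on that library. For the fraction difference in WT it was -0.05, so that positive rho was not seen without the library. These correlations are across genes that share the same 10 libraries and describe them only. The 16 members with under 300 coding bases had a median genotype difference of -0.10 in IQ3pos and 0.08 in IQ3neg, and the 21 longer members had 0.05 and 0.37. The 206 other genes with under 300 coding bases had 0.05 and 0.20, and the longer other genes had 0.11 and 0.26, so short genes were lower there too. The labels state neither read length nor RNA fragment size, and their part in these values was not tested.

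The partner subunits made from the mitochondrial genome were further apart between genotypes by their medians than the nuclear ones. These are mt-Cytb of complex III, mt-Co1, mt-Co2 and mt-Co3 of complex IV and mt-Atp6 and mt-Atp8 of complex V, and 0 of the 6 were called in any comparison by limma. mt-Cytb, the electron-carrying core of complex III, had 13.39 and 13.84 log2 CPM in R122C IQ3pos and 16.38, 15.90 and 15.26 in WT IQ3pos, against 13.92 and 12.84 in R122C IQ3neg and 15.72, 14.08 and 14.39 in WT IQ3neg. The R122C libraries lay below all WT libraries in both fractions. The median difference of R122C against WT over the 6 was -3.77 in IQ3pos and -2.75 in IQ3neg (-2.23 without WT IQ3neg replicate 1; lowest adjusted p = 0.231 and 0.638), where the nuclear members had -0.05 and 0.29. The 6 genes ran from -3.86 to -2.23 in IQ3pos and from -2.82 to -1.35 in IQ3neg, and mt-Cytb, the most abundant, differed least. Within the shared title code the median was -2.75 in IQ3pos and -0.78 in IQ3neg. The summed CPM of the 6 divided by that of the 46 nuclear members was 0.739 and 0.931 in R122C IQ3pos, 4.92, 3.92 and 3.33 in WT IQ3pos, 2.25 and 0.641 in R122C IQ3neg, and 12.3, 2.26 and 2.57 in WT IQ3neg. The genotypes did not overlap in either fraction, in IQ3neg by a narrow margin. mt-Cytb made up most of these sums, mt-Co2 was at 0.17 to 5.59 log2 CPM, and reads shared with nuclear copies of mitochondrial DNA may have been left out in counting, so the ratio is not a ratio of proteins.

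**Figure D5:**
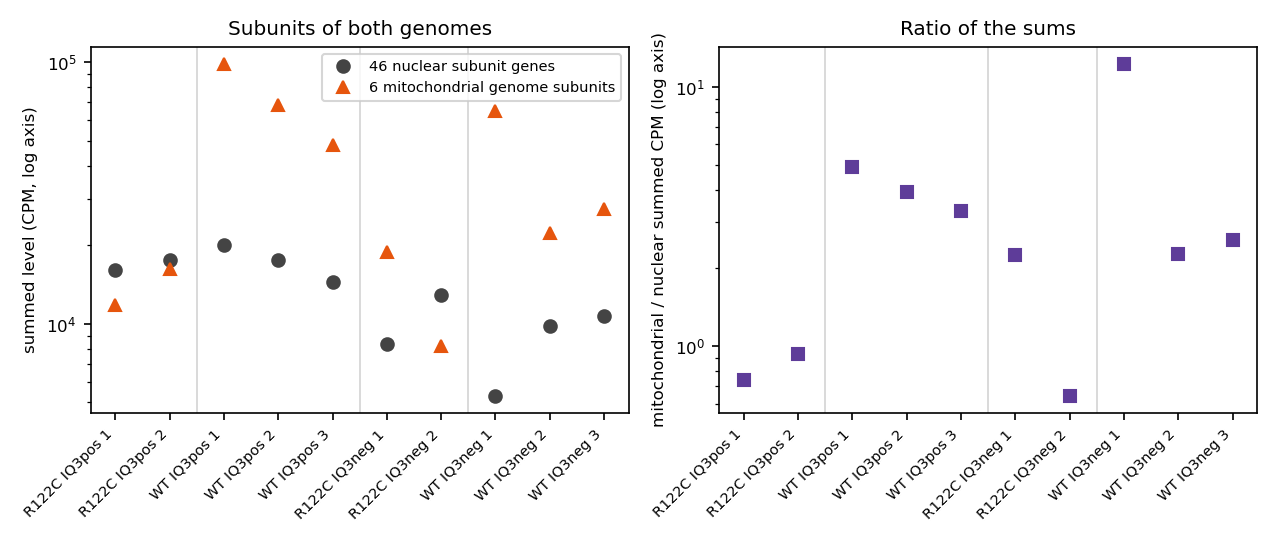
Left, summed level in CPM (log axis) of the 46 nuclear members (circles) and the 6 subunits made from the mitochondrial genome (triangles) in each library, and right, the ratio of the sums (log axis). The ratio lies between 0.641 and 2.25 in the 4 R122C libraries and between 2.26 and 12.3 in the 6 WT libraries.

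Other genes of oxidative phosphorylation were compared between the fractions by their medians, and none of them was called by limma in any of the 5 comparisons. The 36 complex I subunits had a median fraction difference of 0.57 in R122C and 0.79 in WT, with 36 and 35 of 36 above 0. The 4 complex II subunits had 0.56 in R122C and 0.77 in WT. Assembly factors of complex III had 0.03 in R122C and 0.23 in WT (6 tested), those of complex IV 0.59 and 0.68 (21 tested of 23), and the assembly and regulatory factors of complex V 0.74 and 0.83 (5 tested). The carriers that exchange ATP, ADP and phosphate with the cytosol had 0.75 in R122C and 0.84 in WT (3 tested of 4). All but those of complex III assembly lay above the medians of the 7404 always-detected genes, 0.37 in R122C and 0.51 in WT. Regulators of mitochondrial gene expression, among them transcription factors and coactivators, had 0.49 in R122C and 0.52 in WT (11 tested). Without WT IQ3neg replicate 1 the WT medians were 0.50 for complex I, 0.13 for complex II, -0.29, 0.23 and 0.75 for the assembly factors of complexes III, IV and V, 0.59 for the carriers and 0.14 for the regulators, beside 0.13 over the 7404 genes. For R122C against WT in IQ3pos these lists had medians of -0.03 for complex I, 0.39 for complex II, 0.08, 0.03 and 0.01 for the assembly factors of complexes III, IV and V, 0.02 for the carriers and 0.00 for the regulators. In IQ3neg the complex I median was 0.18 and the complex II median 0.51, and without WT IQ3neg replicate 1 they were -0.13 and -0.06. Ndufa4, a subunit of complex IV that the naming pattern missed, differed between fractions by 0.59 in R122C and 1.16 in WT (adjusted p = 0.795 and 0.139).

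Markers of the corpus cell types also differed between the fractions. All 5 enteroendocrine markers (Chga, Chgb, Sst, Ghrl and Hdc) were lower in IQ3pos in both genotypes and passed the test, and they summed to 205 to 342 CPM in R122C IQ3pos and 204 to 476 in WT IQ3pos, against 10828 to 14569 in R122C IQ3neg and 11507 to 19568 in WT IQ3neg. Cblif, the gastric intrinsic factor made by chief cells in mice, was lower in IQ3pos in both genotypes and was the 1 called gene of 4 tested chief cell markers. The pit cell genes Gkn1, Gkn2 and Tff1 (3 of 4 markers) and the division genes Mki67 and Top2a (2 of 3) were higher in WT IQ3pos, Top2a also in R122C IQ3pos, and the tuft cell gene Trpm5 (1 of 3) was lower in WT IQ3pos. None of the 3 neck cell, 3 immune and 4 epithelial markers was called. The epithelial markers had a median fraction difference of 0.21 in R122C and 0.60 in WT, and of 0.71 for R122C against WT in IQ3neg, and without WT IQ3neg replicate 1 the WT fraction value was 0.04 and the genotype value 0.09. The immune markers summed to 1792 CPM in WT IQ3neg replicate 1 and to 50.0 to 1178 CPM in the other 9 libraries, and the erythroid and germ cell markers to at most 11.4 and 8.3 CPM. The 10 parietal cell markers, none of them called, had a median fraction difference of -0.14 in R122C and 1.18 in WT, and of -0.82 for R122C against WT in IQ3pos. Their median level was 6.62 and 4.71 log2 CPM in R122C IQ3pos, 7.28, 6.55 and 6.05 in WT IQ3pos, 6.49 and 5.37 in R122C IQ3neg, and 4.78, 6.42 and 5.27 in WT IQ3neg, with 0 to 4 of the 10 listed at 0 in a library. Their summed level was 3092 and 1239 CPM in R122C IQ3pos, 4696, 3644 and 1307 in WT IQ3pos, 1650 and 1059 in R122C IQ3neg, and 579, 1265 and 1141 in WT IQ3neg. The 6 parietal markers above the floor in every library differed between the R122C fractions by 0.76 (Atp4b), 0.72 (Kcne2), 0.81 (Clic6), 1.01 (Ezr), 0.09 (Atp4a) and -0.37 (Esrrg). The group mean of the summed parietal markers was higher in IQ3pos than in IQ3neg in both genotypes, but the R122C sums overlapped between fractions. Of the 10 marker differences, 5 were above 0 in R122C and 9 in WT. Cckbr was lowest in both genotypes, at -4.55 in R122C and -4.26 in WT. Without WT IQ3neg replicate 1 the parietal median in WT was 0.81. The part of epithelial content and of cell type mixture in the differences of the respiratory subunits was not tested.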

How the data were processed

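RNA of 10 libraries in 4 groups, taken from the titles and characteristics, was analysed from 1 deposited table. The authors deposited log2 CPM values without a pseudocount, with every gene below 1 CPM listed at 0. The tools and build GRCm38 (mm10) credited here come from the submitters' processing notes, which name edgeR, Subread 2.0.0, featureCounts and STAR 2.7.1a without their roles. No source used here states strandedness, the scaling between libraries or the treatment of shared reads, so genes that overlap or are nearly identical may share reads. All 10 value columns carried a sample's name, and 0 columns were unassigned. Within each library the CPM values were whole multiples of 1 step for 100% of genes above the floor (tolerance 0.05 read), which gave the divisor behind the CPM. Over all genes the listed CPM came to more than the base of the unit, which no source used here explains.

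Differences were tested on the log2 values with limma 3.58.1 in R 4.3.3: 4 group means over all 10 libraries, moderated with a trend on intensity (degrees of freedom: 6 residual, 6.01 prior), two-sided. Kept were 17155 genes that at least 2 libraries list above 0, 42 of the 46 members among them, and p-values were adjusted by Benjamini-Hochberg over all of them with a threshold of 0.05. The fit was tested on simulated data. The comparisons were IQ3pos against IQ3neg in R122C and in WT, R122C against WT within each fraction, and their interaction. No list was tested as a list: counts and medians describe it beside all tested genes. Coordinates and lengths come from GENCODE M21 for 45 members (2 of them matched through RefSeq synonyms), and promoters from RefSeq. Date-like symbols in 26 places were not named.

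Members and lists (complexes I and II, assembly factors, carriers, regulators, mitochondrial genome subunits, cell type markers) were chosen with earlier results of these data known. Members were named when called, when among the 4 highest or lowest differences of a comparison, when a core subunit or part of a paralogue pair, or when their groups did not overlap in IQ3pos, the last chosen after the values were seen. Alternatives were median centring, rescaling without 23 abundant genes (no member among them), log2(CPM + 1), 2 other filters, each library left out, both WT replicate 1 libraries left out, a block of same-numbered libraries, the title code as a covariate, and robust moderation without a trend. Levels per kilobase of whole exonic length were added after the data were seen.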

Additional observations from a re-analysis of the deposited data

How the results depend on the processing

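Across all alternatives run, the members' median kept its sign in the fraction comparisons, and no member changed sign between fractions in WT (0 of 795 values), while signs changed for 19 of 795 values between fractions in R122C, 63 and 74 between genotypes in IQ3pos and IQ3neg, and 75 in the interaction; the cause was not tested. Groups of 2 and 3 libraries and the floor at 1 CPM limit what can be seen, and every count depends on the scaling between libraries, which is not stated.

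With each library centred on the median of its tested genes, 7 members were called in WT, all higher in IQ3pos (Atp5pb, Cycs, Cox5a, Uqcrc1, Atp5b, Cyc1 and Atp5a1), and all genes called were 898 in WT (510 higher, 388 lower), 87 in R122C (18 higher, 69 lower) and 2 for R122C against WT in IQ3pos. Rescaling without the most abundant genes gave a members' median of 0.54 in WT, where the median of all genes shifted to -0.16, and 0.24 in R122C, with 711 genes called in WT (172 higher, 539 lower) and 102 in R122C. Without a filter the counts of all genes were 191 in WT and 4 for R122C against WT in IQ3neg. With genes above the floor in all libraries, 3 members were called in WT, beside 405 genes in all (321 higher, 84 lower). For R122C against WT in IQ3pos 28 genes were called, all lower. Without both WT replicate 1 libraries the members' median in WT was 0.60, with 220 genes called in WT and 2 for R122C against WT in IQ3pos. Robust moderation without a trend called 126 genes in R122C and 7 for R122C against WT in IQ3pos, and the title code as a covariate called 31 in R122C and gave members' medians of -0.43 and -0.13 for R122C against WT in IQ3pos and IQ3neg.

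Same-numbered IQ3pos and IQ3neg libraries deviated together with correlations of 0.16, 0.12 and 0.08 in WT and 0.11 in R122C. Each of the 3 WT IQ3pos libraries correlated best with its own number. The main fit did not take the numbers as pairs, since the labels leave unsaid whether they mark shared mice. Low correlations do not exclude pairing. With a replicate block (estimated correlation 0.148), 3 members were called in WT (Atp5g3, Cycs and Cox5a, adjusted p = 0.0497, 0.0471 and 0.0356 by limma), with 674 genes in WT (274 higher, 400 lower) and 90 in R122C.

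Leaving out each library in turn gave 0 to 1 called members in WT (Cox5a without WT IQ3neg replicate 3) and 0 in the other comparisons. All genes called ranged from 78 to 403 in WT, 17 to 66 in R122C, 0 to 8 and 0 to 16 for R122C against WT in IQ3pos and IQ3neg, and 0 in the interaction. The members' median ranged from 0.70 to 1.20 in WT, 0.24 to 0.95 in R122C, -0.23 to 0.02 and -0.07 to 0.64 for R122C against WT in IQ3pos and IQ3neg, and -0.76 to -0.07 in the interaction.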
